A study of Mus musculus with 6 samples.

Results

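The 7 genes Ankrd1, Ankrd2, Ankrd23, Csrp3, Fhl1, Xirp1 and Xirp2, which are known from stretched, overloaded or damaged striated muscle, were followed in whole biceps of mice. Ankrd1, Ankrd2 and Ankrd23 encode the muscle ankyrin repeat proteins, Csrp3 and Fhl1 encode proteins built of LIM domains, and Xirp1 and Xirp2 encode the Xin actin-binding proteins. They were taken by symbol from the 13105 genes that the deposited table lists. Each of the 7 symbols stood on 1 row, and all 7 passed the filter on low values that left 12268 genes for testing. The samples were 3 denervated biceps and 3 contralateral control biceps of 3 CD-1 mice, which carry no engineered allele in the labels. Roots C5 to T1 of the brachial plexus on 1 side had been cut out at postnatal day 5. Muscle was taken from both limbs 3 weeks after that, at postnatal day 26. Each control muscle thus comes from an animal that was also operated on, and the control limb is not that of an uninjured mouse. The deposited values are relative abundances on the log2(TPM + 1) scale as read here, and TPM, an abundance per transcript length, sums to a fixed total over each library. In whole muscle a smaller number of fibres and less RNA in each fibre cannot be told apart.

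The 3 ankyrin repeat proteins bind the spring region of titin in the I band of the sarcomere, and they can also be found in the nucleus, where Ankrd1 acts as a transcription cofactor. Csrp3, also called muscle LIM protein, binds telethonin and alpha-actinin at the Z disc and likewise shuttles to the nucleus. Xirp1 and Xirp2 bind and bundle actin filaments at cell junctions of the heart, at myotendinous junctions and at sites of myofibril damage in skeletal muscle, and Fhl1 is a scaffold of the sarcomere whose gene is mutated in X-linked myopathies of humans. Their transcripts are best known for responding to load, so that a growing muscle set beside a muscle without its nerve asks how each of them behaves when activity is lost while the skeleton still grows.

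In the main fit, which has no mouse block, Ankrd1 alone of the 7 genes was called higher in denervated biceps on both scales used here. It had 10.8 times the control level by mean TPM. The other 6 spread over a wide range. Csrp3 stood 3.37-fold, Xirp1 2.20-fold, Fhl1 1.77-fold, Ankrd2 1.66-fold and Xirp2 1.51-fold above control by the ratio of mean TPM, while Ankrd23 stood at 0.938 of its control level. The typical gene was also higher, since the median log2 fold change of all tested genes was 0.71 on the deposited scale. Median-of-ratios scaling, which divides each library by the median ratio of its genes to their geometric mean, brought that median to 0.00. A gene is said here to have risen or fallen only if limma called it in the same direction on both scales at an adjusted p under 0.05. By that rule 1 of the 7 rose and 0 fell, where 15.3% of all tested genes were higher on both scales and 4.5% were lower. With the mouse as a block Csrp3 was called higher on both scales as well (limma adjusted p = 1.03e-05 deposited, 0.0218 scaled). That made 2 of the 7, where 1958 of the 12268 tested genes were higher on both. The counts that follow are of the main fit. On the deposited scale 5 of the 7 were called higher, against 69.9% of all tested genes, and 0 were called lower, against 4.5%. After scaling 1 was called higher, against 15.3%, and 1 was called lower, against 18.8%. The median log2 fold change of the 7 was 0.83 on the deposited scale, beside 0.71 for all tested genes, and -0.08 after scaling, beside 0.00. Among the 7218 genes that passed a filter at 5 TPM, as all 7 did, the medians were 0.81 and -0.02. The shares called higher among the 7 therefore do not stand apart from the background, and what follows concerns how the members differ from each other.

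**Figure D1:**
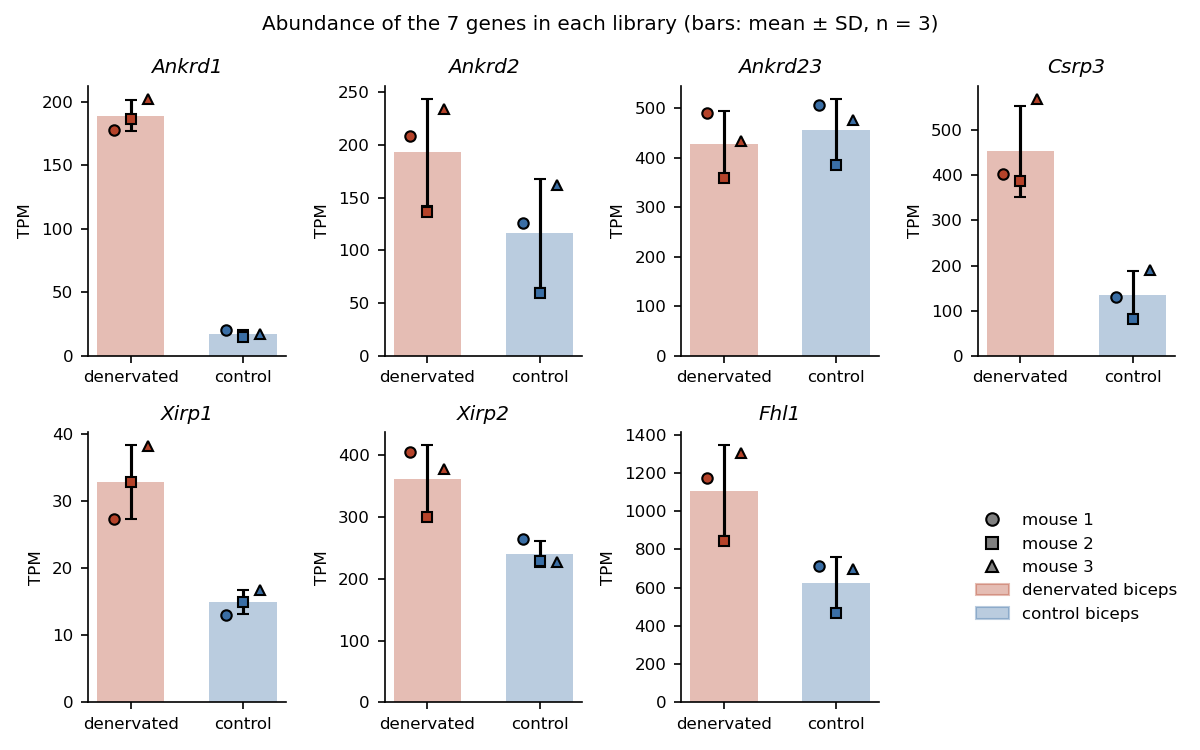
Abundance in TPM (vertical axes, each from 0) of the 7 genes in denervated biceps (left, red) and control biceps (right, blue); bars are means, error bars are SD over 3 libraries, and the marker shapes are the 3 mice. The denervated libraries of Ankrd1 sit between 178 and 202 TPM and its control libraries between 15.01 and 20.2 TPM, whereas the groups of Ankrd2 and Ankrd23 overlap.

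Ankrd1 (ENSMUSG00000024803, chromosome 19: 36111961 to 36120099, minus strand, GRCm38), known as cardiac ankyrin repeat protein, measured 178, 187 and 202 TPM in the denervated biceps of mice 1, 2 and 3, against 20.2, 15.01 and 17.2 TPM in their control biceps. The groups lie far apart and each is tight. The log2 fold change was 3.37 ± 0.15 (SE, n = 3 per group; limma adjusted p = 8.45e-07) on the deposited scale and 2.49 ± 0.18 (adjusted p = 8.01e-05) after scaling. That placed Ankrd1 at rank 49 of 12268 tested genes by deposited fold change and at rank 55 after scaling. The rise was 8.80-fold in mouse 1, 12.5-fold in mouse 2 and 11.8-fold in mouse 3. Without any 1 library or any 1 mouse the scaled log2 fold change stayed between 2.28 and 2.75 and was called each time.

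Ankrd2 (ENSMUSG00000025172, chromosome 19: 42036000 to 42045110, plus strand) is the member whose protein is most abundant in slow fibres. It measured 209, 137 and 234 TPM in the denervated biceps of mice 1, 2 and 3, against 126, 60.0 and 162 TPM in their control biceps. The groups overlap, since the denervated muscle of mouse 2 stands below the control muscle of mouse 3, yet the denervated muscle was above the control muscle within each mouse, by 1.65-fold, 2.28-fold and 1.44-fold. The log2 fold change of 0.81 ± 0.34 (SE, n = 3 per group) had a limma adjusted p of 0.0533. With the mouse as a block the adjusted p was 8.93e-04. It was also called higher without denervated replicate 2 (adjusted p = 0.0293), control replicate 1 (0.0419), control replicate 3 (0.0131), mouse 2 (0.0190) or mouse 3 (0.0106). It was not called without denervated replicate 1, denervated replicate 3 or mouse 1 (adjusted p of 0.137 to 0.196), nor without control replicate 2, where the value was 0.39 (adjusted p = 0.156). After scaling the value was -0.10 with a 95% interval from -1.05 to 0.85 (adjusted p = 0.883), so that Ankrd2 differed from control by about as much as the typical gene, within an interval that is wide.

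Ankrd23 (ENSMUSG00000067653, chromosome 1: 36530188 to 36536883, minus strand), the third muscle ankyrin repeat protein, measured 491, 359 and 435 TPM in the denervated biceps of mice 1, 2 and 3, against 507, 386 and 476 TPM in their control biceps. Each denervated muscle is a little below the control muscle of the same mouse. The log2 fold change was -0.09 ± 0.17 (SE, n = 3 per group; limma adjusted p = 0.617) on the deposited scale, with a 95% interval from -0.47 to 0.28 that lies below the median of all genes. After scaling it was -1.002 ± 0.16 (adjusted p = 0.00261), at rank 874 of 12268 counted from the lowest. The call after scaling held without any 1 library or mouse (largest adjusted p = 0.0401). Of the 31-mers in the transcripts of Ankrd23, 78.0% occur in another gene, and 76.2% occur in Gm42417, an overlapping locus on the same strand that spans Ankrd23 and its neighbour. No source used here states whether the index behind the deposited values held that locus, so the level of Ankrd23 is uncertain.

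**Figure D2:**
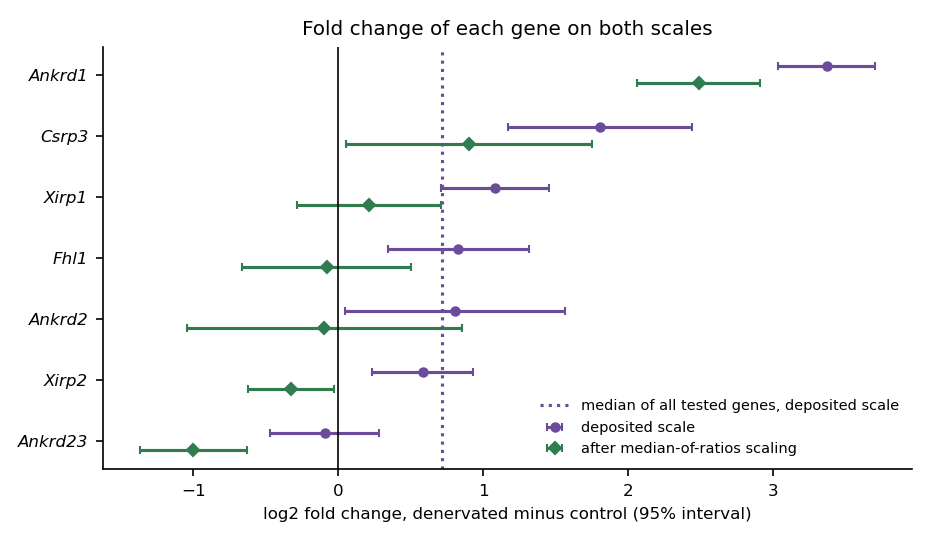
Log2 fold change of denervated minus control biceps (horizontal axis) for each of the 7 genes, with 95% intervals from limma, on the deposited scale (circles) and after median-of-ratios scaling (diamonds); the dotted line is the median of all tested genes on the deposited scale, 0.71. On the deposited scale the intervals of Ankrd1 and Csrp3 lie to the right of that line, that of Ankrd23 lies to the left of it, and those of Xirp1, Fhl1, Ankrd2 and Xirp2 reach across it.

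The proximal promoters of the 3 ankyrin repeat genes are shown because these relatives moved apart, and that of Xirp2 because it holds a motif of the MEF2 factors, a member of which, Mef2a, rose. Mef2c and Mef2d did not rise by the rule above, with Mef2d at a scaled log2 fold change of -0.11 (limma adjusted p = 0.387). Neither did Xirp2 itself. RefSeq windows (GRCm38.p6) were found for 6 of the 7 genes, 9 windows in all. Each line gives the 250 bases before an annotated start, 5′ to 3′ on the strand of the gene, with matches to the MCAT box CATTCC on either strand, the MEF2 motif or the CArG box in capitals. The window of Ankrd1 is chr19:36119845-36120094 on the minus strand, that of Ankrd2 chr19:42035777-42036026 on the plus strand, that of Ankrd23 chr1:36535740-36535989 on the minus strand and that of Xirp2 chr2:67445752-67446001 on the plus strand.
Ankrd1: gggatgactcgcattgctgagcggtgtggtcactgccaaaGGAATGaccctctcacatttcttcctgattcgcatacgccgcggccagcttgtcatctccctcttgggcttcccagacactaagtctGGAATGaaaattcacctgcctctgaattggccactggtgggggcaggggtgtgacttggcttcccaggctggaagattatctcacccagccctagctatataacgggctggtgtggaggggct
Ankrd2: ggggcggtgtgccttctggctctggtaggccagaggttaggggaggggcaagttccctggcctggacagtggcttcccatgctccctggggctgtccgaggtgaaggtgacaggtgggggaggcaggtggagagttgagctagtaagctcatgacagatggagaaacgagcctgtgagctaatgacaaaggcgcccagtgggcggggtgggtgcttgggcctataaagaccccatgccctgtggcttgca
Ankrd23: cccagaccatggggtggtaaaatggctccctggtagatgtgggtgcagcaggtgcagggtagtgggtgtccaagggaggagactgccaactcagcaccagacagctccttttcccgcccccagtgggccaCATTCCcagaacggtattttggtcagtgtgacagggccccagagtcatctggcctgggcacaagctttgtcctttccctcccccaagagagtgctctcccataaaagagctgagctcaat
Xirp2: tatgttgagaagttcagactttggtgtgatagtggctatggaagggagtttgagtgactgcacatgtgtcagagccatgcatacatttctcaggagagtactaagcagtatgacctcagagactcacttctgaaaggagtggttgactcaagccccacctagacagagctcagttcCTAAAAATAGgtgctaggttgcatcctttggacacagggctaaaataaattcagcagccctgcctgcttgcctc
The MCAT box, the element read by TEAD factors, occurs at 2 places in the window of Ankrd1, starting 210 and 123 bases before the start, and at 1 place in the shown window of Ankrd23, 120 bases before it. It occurs in 12.6% of all 32851 promoter windows of the same length. The MEF2 motif of Xirp2 begins 74 bases before the start, and 2.92% of all windows hold such a motif. A CArG box, which serum response factor binds, occurs in 1 of the 2 windows of Fhl1, 102 bases before the start, and in 1.47% of all windows. Neither window of Csrp3 holds any of these 3 motifs. E-boxes, spelled CANNTG on both strands, are present in at least 1 window of each of the 6 genes and in 66.2% of all windows. The TATAAA motif occurs in the window of Ankrd2, 29 bases before the start, in a window of Fhl1 and in 12.4% of all windows. The letters are a description of the windows and say nothing of binding in these muscles. Whether TEAD or MEF2 factors had a part in the changes of these genes was not tested.

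Ratios between 2 genes within a library do not depend on how that library is scaled, and they showed unequal change among the ankyrin repeat genes. Ankrd1 stood at 0.854, 1.37 and 0.865 of the Ankrd2 level in the denervated biceps of mice 1, 2 and 3, against 0.160, 0.2503 and 0.106 in their control biceps. The log2 ratio of Ankrd1 to Ankrd2 was 2.63 higher in denervated muscle, and the groups did not overlap (exact two-sided permutation p = 0.1, adjusted p = 0.12 over 6 pairs). With 3 against 3 samples 0.1 is the smallest p such a test can give. Ankrd1 over Ankrd23 showed the widest gap, with 0.363, 0.520 and 0.466 in denervated biceps and 0.0399, 0.0388 and 0.0361 in control biceps, a log2 difference of 3.54. Ankrd2 over Ankrd23 measured 0.425, 0.380 and 0.539 in denervated biceps and 0.249, 0.155 and 0.341 in control biceps, a log2 difference of 0.91. Each of these ratios was higher in the denervated muscle of every mouse, and each had an exact permutation p of 0.1 (adjusted p = 0.12). Those against Ankrd23 carry the uncertainty of its shared sequence.

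The make-up of the ankyrin repeat pool restates these ratios as shares of a sum. Every share and the sum depend on the level of Ankrd23, which its shared sequence leaves uncertain. Ankrd1 made up 20.3%, 27.4% and 23.2% of the summed TPM of the 3 genes in the denervated biceps of mice 1, 2 and 3, against 3.09%, 3.25% and 2.62% in their control biceps. Ankrd23 made up 52.8 ± 3.02% in denervated and 78.0 ± 5.57% in control muscle (mean ± SD, n = 3). The groups were apart for both (exact permutation p = 0.1, the smallest possible, adjusted p = 0.15 over 3 shares). The share of Ankrd2 was 23.5 ± 3.44% in denervated and 19.0 ± 5.88% in control muscle, with overlapping groups (exact permutation p = 0.4). Within mice it was higher in the denervated muscle by 4.43, 6.995 and 2.13 percentage points, and an exact sign-flip test over 3 mice gave p = 0.25, the smallest it can give. The sum itself was 811 ± 111 TPM in denervated and 590 ± 112 TPM in control muscle.

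**Figure D3:**
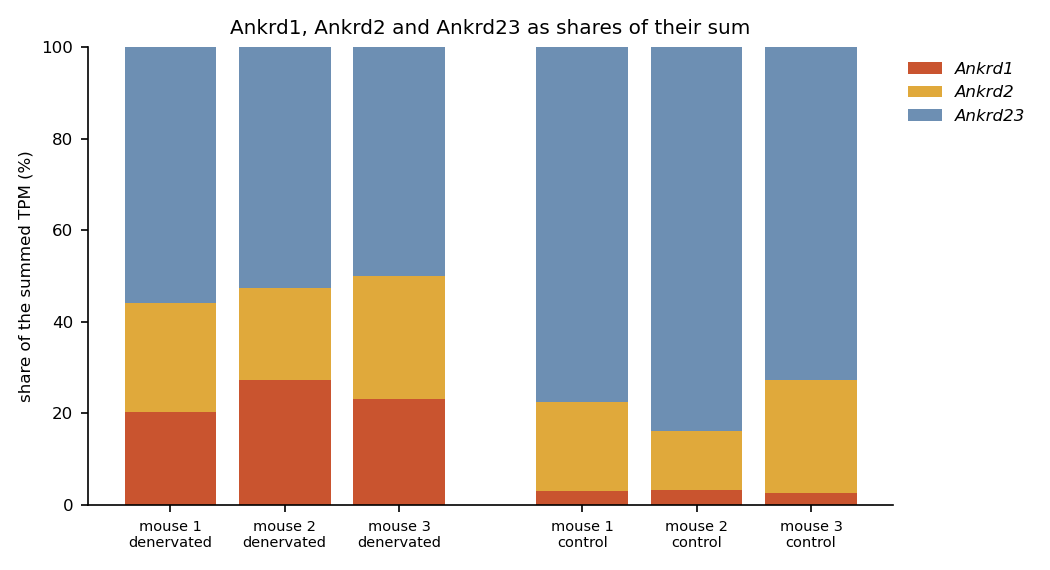
Shares of Ankrd1, Ankrd2 and Ankrd23 in their summed TPM (vertical axis, percent) in each library, with the 3 denervated biceps on the left and the 3 control biceps on the right. Ankrd1 takes 20.3% to 27.4% of the denervated bars and 2.62% to 3.25% of the control bars. All shares carry the uncertainty in the level of Ankrd23.

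Csrp3 (ENSMUSG00000030470, chromosome 7: 48830398 to 48848033, minus strand) measured 404, 387 and 569 TPM in the denervated biceps of mice 1, 2 and 3, against 131, 81.5 and 191 TPM in their control biceps. Every denervated library is above every control library, and the control libraries spread more than 2-fold among themselves. The log2 fold change was 1.81 ± 0.28 (SE, n = 3 per group; limma adjusted p = 5.40e-04) on the deposited scale, the second largest of the 7. After scaling it was 0.90 ± 0.36 (adjusted p = 0.0957), at rank 706 of 12268, and was called in the paired fit, blocked by mouse (adjusted p = 0.0218) and without control replicate 3 (adjusted p = 0.0346). Without control replicate 2 the scaled value was 0.53 (adjusted p = 0.200), without mouse 2 it was 0.58 (adjusted p = 0.264), and it was called in 1 of 9 such leave-outs. Within mice the denervated muscle held 3.08, 4.74 and 2.99 times the control level. Relative to Fhl1 in the same library, Csrp3 measured 0.345, 0.457 and 0.436 in denervated biceps and 0.184, 0.175 and 0.274 in control biceps, a log2 difference of 0.99 (exact permutation p = 0.1). The change was larger for Ankrd1 than for Csrp3, with a log2 ratio of Ankrd1 to Csrp3 that was 1.63 higher in denervated muscle and higher in 3 of 3 mice (exact permutation p = 0.1).

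Fhl1 (ENSMUSG00000023092, chromosome X: 56731787 to 56793346, plus strand) was the most abundant member in both groups. It measured 1172, 846 and 1305 TPM in the denervated biceps of mice 1, 2 and 3, against 711, 465 and 696 TPM in their control biceps. The groups do not overlap, and mouse 2 is lowest in both. The log2 fold change of 0.83 ± 0.22 (SE, n = 3 per group; limma adjusted p = 0.00719) came to -0.08 after scaling (adjusted p = 0.841, 95% interval from -0.66 to 0.50). Within mice the denervated muscle held 1.65, 1.82 and 1.87 times the control level. The direction after scaling is not settled, since quantile normalization gave 0.69 (adjusted p = 0.0147).

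The Xin genes differ in mean level by more than 10-fold in both groups. Xirp1 (ENSMUSG00000079243, chromosome 9: 120013755 to 120023598, minus strand) measured 27.3, 32.9 and 38.2 TPM in the denervated biceps of mice 1, 2 and 3, against 13.1, 14.998 and 16.7 TPM in their control biceps. Its groups do not overlap, and the order of the mice is the same in both. Its log2 fold change of 1.08 ± 0.17 (SE, n = 3 per group; limma adjusted p = 5.08e-04) came to 0.21 ± 0.21 after scaling (adjusted p = 0.482). The scaled value ranged between 0.047, with denervated replicate 3 left out, and 0.44, with denervated replicate 1 left out, and was called in 0 of 9 leave-outs. The within-mouse folds of Xirp1 are close together, at 2.09, 2.19 and 2.29.

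Xirp2 (ENSMUSG00000027022, chromosome 2: 67446002 to 67526614, plus strand) measured 405, 300.2 and 378 TPM in the denervated biceps of mice 1, 2 and 3, against 264, 228 and 227 TPM in their control biceps. The groups are apart, but by less than those of Xirp1. Its log2 fold change of 0.58 ± 0.16 (SE, n = 3 per group; limma adjusted p = 0.00794) was below that of the median gene and became -0.32 ± 0.13 after scaling (adjusted p = 0.0888), lower in 3 of 3 mice, but quantile normalization turned it to 0.12 (adjusted p = 0.431). The deposited call was lost without mouse 3 (adjusted p = 0.0784). Xirp1 over Xirp2 measured 0.0674, 0.110 and 0.101 in denervated biceps and 0.0495, 0.0657 and 0.0735 in control biceps. That ratio was higher in the denervated muscle of each mouse, with groups that overlap (log2 difference 0.55, exact permutation p = 0.2). An antisense gene, Gm13601, shares 168 exonic bases with Xirp2 and 1.17% of its 31-mers. It measured 4.38 to 9.68 TPM in denervated and 1.94 to 2.95 TPM in control biceps, and strand is not stated to have been used in the counting.

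Across the members, 5 genes had all denervated libraries above all control libraries on the deposited scale (Ankrd1, Csrp3, Xirp1, Xirp2 and Fhl1), where 71.4% of all tested genes did, and 0 had them all below, where 4.96% did. After scaling only Ankrd1 had them all above, where 23.8% of all tested genes did, and only Ankrd23 had them all below, where 24.9% did. Of the 13105 genes in the authors' deposited table, 336 are listed as up and 21 as down, in lists named for a fold cut. Ankrd1 is the single member among those listed as up, and 0 of the 7 are among those listed as down. The authors' deposited table gives adjusted p-values under 0.05 for Ankrd1, Csrp3, Xirp1, Xirp2 and Fhl1 and 0.237 and 0.866 for Ankrd2 and Ankrd23. Csrp3, Xirp1, Xirp2 and Fhl1 are thus under 0.05 there without being listed as up. The share of all listed genes under 0.05 by those p-values was not counted.

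The order of the levels, which TPM allows to be compared per transcript length, was different in the 2 groups. In denervated biceps Fhl1 (1107 ± 236 TPM, SD, n = 3) led Csrp3 (453 ± 101), Ankrd23 (428 ± 65.9), Xirp2 (361 ± 54.6), Ankrd2 (193 ± 50.6), Ankrd1 (189 ± 12.4) and Xirp1 (32.8 ± 5.47). In control biceps the order by mean TPM was Fhl1 (624 ± 138), Ankrd23 (457 ± 62.6), Xirp2 (239.8 ± 21.1), Csrp3 (134 ± 54.6), Ankrd2 (116 ± 51.9), Ankrd1 (17.5 ± 2.62) and Xirp1 (14.9 ± 1.80). In denervated muscle the ranges of Csrp3 and Ankrd23, of Ankrd23 and Xirp2, and of Ankrd2 and Ankrd1 overlapped across mice. Within libraries Ankrd23 was nevertheless above Xirp2 in 3 of 3, whereas Csrp3 was above Ankrd23 in 2 of 3 and Ankrd2 above Ankrd1 in 2 of 3. In control muscle the overlapping neighbours were Fhl1 and Ankrd23, Csrp3 and Ankrd2, and Ankrd1 and Xirp1, and within libraries the first gene of each pair was above the second in 3 of 3. Csrp3 was below Xirp2 in all 3 control libraries, whereas in denervated muscle their ranges overlapped, with Csrp3 above Xirp2 in mice 2 and 3 and just below it in mouse 1. The ranges of Ankrd1 and Ankrd2 overlapped in denervated muscle and not in control muscle.

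Part of the spread within groups followed the mouse. Ankrd2, Ankrd23, Csrp3 and Fhl1 had their lowest value in mouse 2 in the denervated and in the control muscle on the deposited scale, a pattern named after its values were seen and shared by 13.8% of all tested genes. After scaling it held for Ankrd2, Ankrd23, Xirp2 and Fhl1, and for 16.7% of all tested genes. In the muscles of mouse 2 Ankrd2 deviated from its group mean by -0.46 (log2) in denervated and by -0.83 in control muscle, and Csrp3 by -0.21 and -0.63. Xirp1 was lowest in both muscles of mouse 1. The Y-linked gene Ddx3y measured 13.4 TPM in the denervated and 9.30 TPM in the control biceps of mouse 2 while mice 1 and 3 had 0.312 to 0.530 TPM in their 4 muscles. Both muscles of mouse 2 stand apart together in this gene, and its part in these values was not tested. Without mouse 2 the log2 fold change of Csrp3 was 1.59 on the deposited scale and 0.58 after scaling, and that of Ankrd1 3.28 and 2.28.

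**Figure D4:**
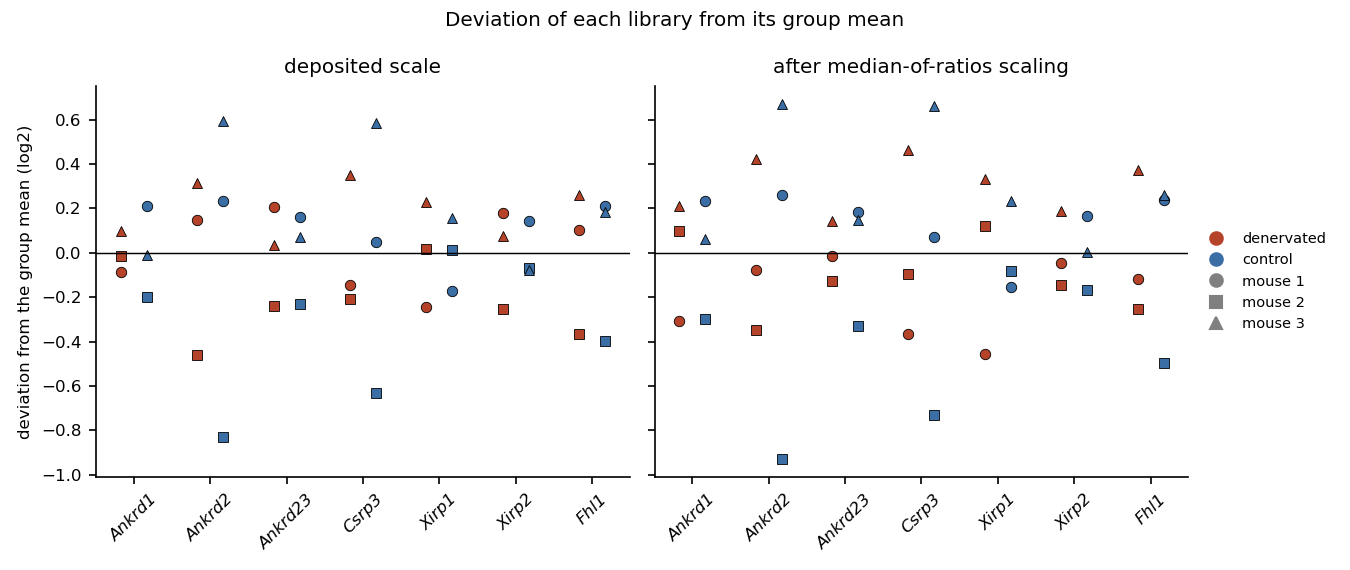
Deviation of each library from the mean of its group (vertical axis, log2) for the 7 genes on the deposited scale (left panel) and after median-of-ratios scaling (right panel); colours are groups and marker shapes are mice. The squares of mouse 2 lie lowest in both groups for Ankrd2, Ankrd23, Csrp3 and Fhl1 in the left panel, with -0.83 for the control muscle in Ankrd2.

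The genes whose profile over the 6 libraries was most like that of each member were sought among 6322 other genes averaging 5 TPM or more, by the Euclidean distance between log2 values less the control mean. For Ankrd1 they were Pcp4, a calmodulin-binding peptide (distance 0.24), Galnt5 (0.50) and Tpm3, the slow alpha tropomyosin (0.51). Pcp4 measured 77.2 ± 7.71 TPM in denervated and 6.82 ± 1.66 TPM in control biceps (SD, n = 3), and Tpm3 493 ± 41.7 and 42.5 ± 4.44 TPM. For Csrp3 no close match was found, with Frmd4b, Lclat1 and Mapk6 at 0.70 to 0.79. Fhl1 was nearest to Egr1, an early response transcription factor (0.27), to Cryab, a small heat shock chaperone of the Z disc (0.28), and to Coro6 (0.29). Cryab measured 1860 ± 295 TPM in denervated and 1055 ± 137 TPM in control biceps. Ankrd2 was nearest to the transporter gene Abcg2 (0.27), followed by Cnot8 (0.53) and Cep57 (0.56), and Ankrd23 to Pcnt (0.16), Pfn2 (0.18) and Usp25 (0.18). Xirp1 was nearest to Nmrk2, the muscle nicotinamide riboside kinase (0.30), Ap1b1 (0.30) and Gne (0.32), and Xirp2 to Pts (0.11), Cdkn1b (0.12) and Nbn (0.14). These distances describe 6 libraries of 2 groups that differ in most genes.

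Among sarcomeric partners of these proteins, 1 of 17 tested genes rose and 3 fell, against a background over all tested genes of 15.3% higher and 4.5% lower by the same rule. The median scaled log2 fold change of the 17 was 0.00, as for all tested genes. The count of rises depends on the normalization. Under quantile normalization 7 of the 17 were called higher and 4 lower, beside 2168 and 2104 of all 12268 tested genes. Enah, an actin regulator of the family that Xin proteins bind, rose (32.2 ± 1.17 TPM in denervated and 8.87 ± 0.535 TPM in control biceps, SD, n = 3; scaled log2 fold change 0.90, limma adjusted p = 0.00133). Myoz1, a calsarcin of fast fibres, fell (127 ± 20.0 TPM in denervated and 282 ± 39.9 TPM in control biceps; scaled -2.05). Capn3, the protease that docks on titin near the ankyrin repeat proteins, fell to 17.9 ± 2.42 TPM in denervated biceps, against 32.3 ± 12.2 TPM in control biceps (scaled -1.63). Ldb3, a PDZ and LIM protein of the Z disc, was also lower on both scales (scaled -1.51), though not on the deposited scale without mouse 3 (adjusted p = 0.0666). Titin itself, Ttn, measured 2225 ± 458 TPM in denervated and 1472 ± 306 TPM in control biceps, and its log2 fold change was 0.60 on the deposited scale (adjusted p = 0.0282) but -0.31 once scaled (adjusted p = 0.310). The deposited call of Ttn was lost without denervated replicate 1, denervated replicate 3, control replicate 2 or mouse 1 (largest adjusted p = 0.115), and after scaling Ttn was called lower without control replicate 2 (adjusted p = 0.0318) but higher under quantile normalization (0.66, adjusted p = 0.0240).

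LIM domain relatives of Csrp3 and Fhl1 went both ways. Of 10 tested genes 2 rose and 2 fell, beside 15.3% and 4.5% of all tested genes, so that the count of rises is near the background. Their median log2 fold change was 0.21 on the deposited scale and -0.66 after scaling, beside 0.71 and 0.00 for all tested genes. Pdlim3, which binds alpha-actinin at the Z disc, rose to 819 ± 163 TPM in denervated biceps, against 163 ± 11.7 TPM in control biceps (SD, n = 3; scaled log2 fold change 1.40, limma adjusted p = 5.79e-04), which made it the most abundant gene of the list. Lims1, an adaptor of integrin adhesions, also rose (scaled 0.49, adjusted p = 0.0546 without mouse 1). Fhl3, a relative of Fhl1 in skeletal muscle, fell to 51.9 ± 10.8 TPM in denervated biceps, against 97.3 ± 16.4 TPM in control biceps (scaled -1.80). Pdlim7 was lower on both scales (scaled -1.30), but leaving out denervated replicate 2 or 3, control replicate 1 or 2, or mouse 2 or 3 ended its deposited call (adjusted p up to 0.156).

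Genes of mechanosensitive transcription included 3 rises and 0 falls among 17 tested, near the 15.3% of all tested genes called higher and beside the 4.5% called lower on both scales. Their median log2 fold change was 0.75 on the deposited scale and -0.04 after scaling, beside 0.71 and 0.00 for all tested genes. Tead4, a TEAD factor of muscle differentiation, rose to 37.4 ± 6.86 TPM in denervated biceps, against 4.91 ± 0.496 TPM in control biceps (SD, n = 3; scaled log2 fold change 1.86, limma adjusted p = 4.71e-05). The other TEAD genes, which belong to the same family of MCAT readers, did not rise by the rule above. Tead1, at 107 ± 8.20 TPM in denervated and 67.4 ± 6.55 TPM in control biceps, and Tead3 were called higher on the deposited scale only. After scaling Tead1 stood at -0.24 (limma adjusted p = 0.0978) and Tead3 at 0.10 (0.699), and Tead2 was called lower (-1.09, adjusted p = 0.0127). Cyr61, a secreted matrix protein and known target of YAP, rose to 49.3 ± 11.8 TPM in denervated biceps, against 10.9 ± 1.41 TPM in control biceps (scaled 1.19). Mef2a rose to 132 ± 14.1 TPM in denervated biceps, against 33.4 ± 3.75 TPM in control biceps (scaled 1.06). Mef2c, the most abundant of the list, measured 286 ± 32.0 TPM in denervated and 128 ± 7.17 TPM in control biceps (scaled 0.24, adjusted p = 0.0537, or 0.0445 with a filter at 5 TPM, and 0.65 under quantile normalization, adjusted p = 4.96e-04). Ctgf, another target of YAP, was named after its values were seen. It measured 8.17, 20.1 and 13.3 TPM in the denervated biceps of mice 1, 2 and 3, against 4.38, 19.5 and 6.47 TPM in their control biceps, with mouse 2 highest in both. Its deposited log2 fold change of 0.58 had an adjusted p of 0.265, or 0.0208 when blocked by mouse, and it was also called without control replicate 2 (adjusted p = 0.00720) or mouse 2 (adjusted p = 0.0118). After scaling it was -0.23 (adjusted p = 0.781).

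**Figure D5:**
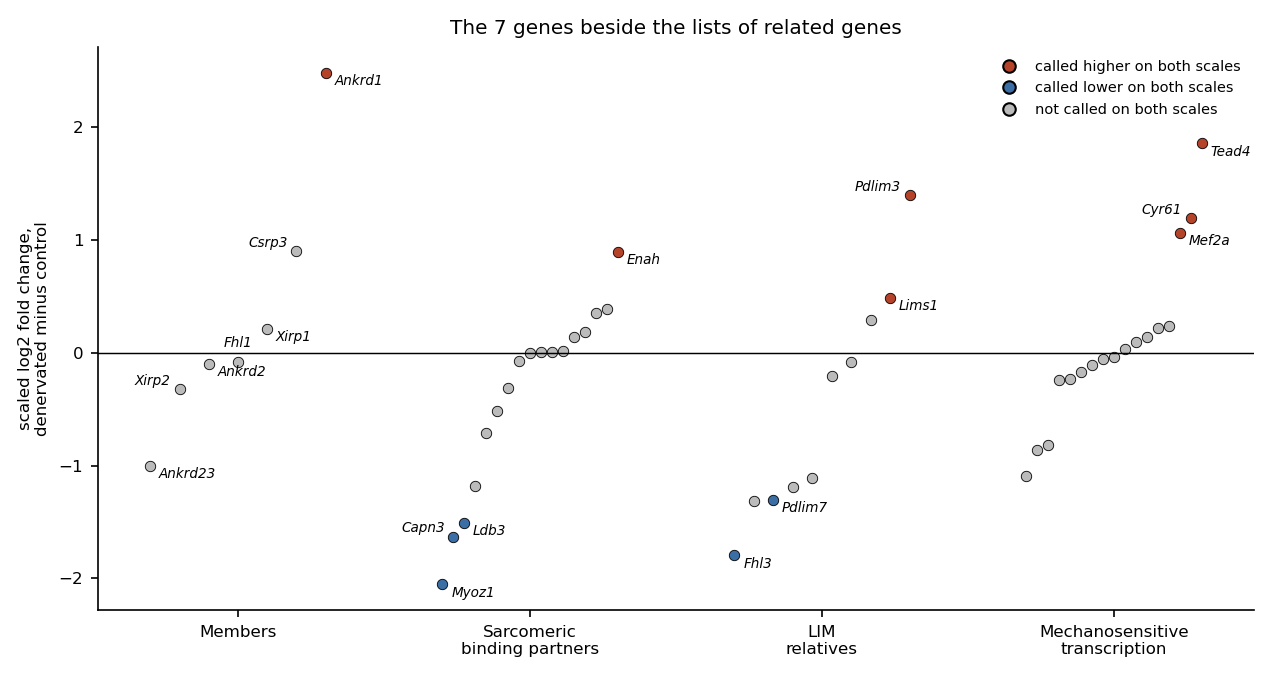
Scaled log2 fold change of denervated minus control biceps (vertical axis) for the 7 members and the 3 lists of related genes, each gene a point ordered by its value within its list; red and blue points were called higher or lower on both scales, and grey points were not. Ankrd1 lies at 2.49, above every gene of the 3 lists, the nearest of which is Tead4 at 1.86.

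The tissue matched its label, with the 6 fibre markers Acta1, Ckm, Des, Tnnt3, Myl1 and Pygm summing to 19521 to 25694 TPM in denervated and 22290.0 to 26702 TPM in control biceps. The near-equal sums hide unequal changes, since 4 of the 6 (Acta1, Ckm, Tnnt3 and Pygm) fell, while Des and Myl1 were called higher on the deposited scale only. Because most members are also heart genes, markers of cardiomyocytes were read as well. Tnni3 stayed at 0.550 to 2.15 TPM in denervated and 0.528 to 0.973 TPM in control biceps. Myh6 measured 30.6 to 40.7 and 2.90 to 3.66 TPM and was called higher on both scales (scaled log2 fold change 2.32, limma adjusted p = 2.24e-05). The other 4 of that list, Nppa, Nppb, Myl7 and Ryr2, were not found by symbol among the listed genes. Markers of 6 other cell types were summed per library. Those of fibroblasts (5 of 5 genes) came to 761 to 1495 TPM in denervated and 416 to 1038 TPM in control biceps, those of macrophages (3 of 4) to 26.7 to 36.7 and 6.14 to 21.4 TPM, and those of satellite cells (2 of 3) to 5.99 to 9.87 and 1.35 to 1.65 TPM. Endothelial markers (5 of 5) came to 55.0 to 74.8 TPM in denervated and 59.8 to 82.0 TPM in control biceps, those of vascular smooth muscle (3 of 4) to 38.4 to 78.5 and 35.8 to 48.2 TPM, and those of Schwann cells (4 of 4) to 41.2 to 59.8 and 69.9 to 157 TPM. These sums are on the deposited scale. After scaling 0 markers of fibroblasts, macrophages or vascular smooth muscle were called, with median log2 fold changes of 0.02, 0.13 and -0.47. Endothelial markers had 5 of 5 called lower (median -0.97) and Schwann cell markers 3 of 3 tested (-3.08), beside 18.8% of all tested genes. Satellite cell markers had 2 of 2 called higher (0.93), beside 15.3%. Transcripts of the mitochondrial genome took 15.9% to 26.9% of the full total in denervated and 23.1% to 32.8% in control libraries, and without mt-Atp8, chosen after its values were seen, 9.35% to 11.4% and 15.4% to 18.4%. The part of these differences in the values of the 7 genes was not tested.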

How the data were processed

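Total RNA of 6 whole biceps was amplified, made into libraries and sequenced as paired-end reads, per the labels' protocols. The tool named is kallisto 0.42.1 and the build mm10, per the submitters' processing notes. How transcript values were combined per gene is not stated. The authors deposited log2 values per gene and library, with no unit in the headers. They were read as log2(TPM + 1), because back-transformed values add up to less than the TPM total, with the listed genes holding 77.3% to 80.3% in denervated and 68.8% to 70.4% in control libraries. No counts are given, and the labels state a minimum depth for all libraries but not the depth of each, which is therefore unknown. The p-values of the authors' deposited table are quoted where it is named, and the signed fold score the authors deposited was not used.

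Genes with at least 1 TPM in at least 3 of 6 libraries were tested in R 4.3.3 by limma 3.58.1, using lmFit on the group and eBayes with its trend option, and Benjamini-Hochberg adjustment over all 12268. The fit was repeated after median-of-ratios scaling over genes above 0 in all 6 libraries, with factors of 1.61, 1.27 and 1.27 for denervated replicates 1 to 3 and 0.722, 0.786 and 0.695 for control replicates 1 to 3. Log2 folds of low genes are understated by the pseudocount of 1. The script was tested on simulated data. Ratios and shares were tested by exact permutation over samples. Sequences shared between genes were counted as 31-mers of GENCODE M21 transcripts.

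The 7 members, the lists of related genes and the cell markers were chosen with earlier results of these data known. From each list up to 4 genes called on both scales with the largest scaled change, and the most abundant, are named. Replicate numbers are mice, per the labels, so the muscles of a mouse are paired. After subtracting group means, the libraries of a mouse correlated over genes at 0.312, 0.183 and 0.411 for mice 1 to 3. The reported fit has no mouse block, and the blocked fit is an alternative. Alternatives covered scaling, pseudocount, filter, variance trend, the block, and leaving out each library or mouse.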

Additional observations from a re-analysis of the deposited data

How the results depend on the processing

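On the deposited scale, median-of-ratios scaling turned the log2 fold changes of Ankrd2 (-0.10), Xirp2 (-0.32) and Fhl1 (-0.079), ended the calls of Csrp3 (0.90) and Xirp1 (0.21), and made Ankrd23 a call (-1.002). Quantile normalization ended the calls of Xirp1 (0.34) and Xirp2 (0.12) and called Ankrd23 lower (-0.50). Against the values after median-of-ratios scaling, quantile normalization turned Ankrd2 (0.26), Xirp2 (0.12) and Fhl1 (0.69) and called Csrp3 (1.33). With the mouse as a replicate block the fold changes are the same and the paired fit called Ankrd2 on the deposited scale (0.81) and Csrp3 after scaling (0.90), and changed no other call of the 7. A filter at 5 TPM also called Ankrd2 (0.81, adjusted p = 0.0447). Both pseudocounts, no filter and no trend changed no call of the 7. Members called higher numbered 5 on the deposited scale, 1 after median-of-ratios scaling and 3 after quantile normalization, and members called lower 0, 1 and 1. On both scales 2 were called higher with the replicate block or without control replicate 3. Leaving out libraries or mice gave Ankrd2 0.39 to 1.10 on the deposited scale (0.62 without mouse 2 and 0.95 without mouse 3) and -0.57 to 0.24 after scaling (0.070 without mouse 1 and 0.027 without mouse 3), Ankrd23 -0.21 to 0.026 on the deposited scale, Xirp2 0.49 to 0.71 on the deposited scale (0.50 without mouse 3), Csrp3 0.53 to 1.23 and Xirp1 0.047 to 0.44 after scaling, and Fhl1 -0.33 to 0.10 after scaling (0.049 without control replicate 3). It gave 1 to 2 members higher after scaling. Of all tested genes, 8580 were called higher and 552 lower on the deposited scale, 5412 higher with the 5 TPM filter, where fewer genes are tested, 1879 and 2307 after median-of-ratios scaling, and 2168 and 2104 after quantile normalization. Leave-outs gave 923 to 1776 higher and 1339 to 2309 lower genes after scaling, with the lowest counts without mouse 1, and 978 and 1438 without mouse 3. The cause of these shifts was not tested. The depth of each library is unknown, so no limit from counting can be given, and 3 samples per group cannot bring an exact permutation test under 0.1.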
